A study of Mus musculus with 9 samples.

Results

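Aquaporins are channel proteins that let water, and in some members glycerol, cross cell membranes. The 8 mouse aquaporin genes described here are Aqp1, Aqp3, Aqp4, Aqp5, Aqp7, Aqp8, Aqp9 and Aqp11, taken by symbol from the 55342 gene names that each library's table holds. They were chosen with their levels across the strains already known, so those levels and the differences between strains are given as a description, with no test. Of the 8 genes, 7 were among the 16523 that passed the filter on low counts, and Aqp8 had no count in any library. The other 4 aquaporin genes in the tables, Mip, Aqp2, Aqp6 and Aqp12, held 0, 2, 0 and 8 counts over all 9 libraries.

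RNA with poly(A) tails was sequenced from biopsies of the labial mucosa, the inner lining of the lip, of infected mice. The strains were B6, Tac111 and Tac146, and each gave 3 libraries. The sources used here do not give the agent, dose or time of the infection, the mutations that the labels mention without naming, or the age of the mice. The labels also name a cell type, ILC1 cells for B6 and T cells for Tac111 and Tac146, so strain and labelled cell type change together against B6 and cannot be told apart. The libraries held 27192359 to 46456500 expected counts. Replicates were numbered 1, 2 and 3 in B6 and Tac111 and 2, 3 and 4 in Tac146. Nothing in the labels says that the libraries of a strain came from separate animals, so every p-value measures the spread between these libraries only.

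The libraries had the transcripts of a whole biopsy. Summed levels of 14 suprabasal oral keratinocyte genes ranged from 65036 to 110143 CPM (reads per 1000000, with library sizes adjusted by edgeR's TMM factors), and of 20 skeletal muscle genes from 24518 to 46409 CPM. The muscle sum was lowest in Tac146 replicate 4. The 17 T cell and ILC1 genes, the labelled cell types, summed to 32.1 to 41.0 CPM for B6, 6.83 to 7.48 CPM for Tac111 and 30.3 to 35.7 CPM for Tac146. Of 15 tested, edgeR called 12 lower in Tac111 and 4 lower in Tac146 against B6, and 10 lower in Tac111 against Tac146. Of all genes tested, 2.80%, 0.109% and 6.27% were called lower in those comparisons. The count of 4 ranged from 0 to 3 without single libraries. In bulk RNA of this kind, fewer cells of a type and less RNA per cell cannot be told apart, which applies to every level below.

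As background, Aqp5 is the water channel of the apical membrane of salivary, lacrimal and sweat gland cells, where saliva secretion depends on it. Aqp3 is the water and glycerol channel of basal and lower suprabasal keratinocytes. Aqp1 is the water channel of capillary endothelium and red blood cells, and Aqp4 that of fast skeletal muscle fibres and of astrocytes, where the dystrophin complex anchors it. Aqp7 and Aqp9 are glycerol channels, of fat cells and small vessels and of liver and leukocytes. Aqp11 is an intracellular member of the family, and Aqp8 is known from gut, pancreas and liver.

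The family is recognised by a pair of short signatures, asparagine, proline and alanine in a row, that fold into the pore from opposite sides. The coding sequences of these sites are shown because they mark what the members share and which of them depart from the family. They were read from the GENCODE M21 transcripts of the GRCm38 mouse genome, written 5′ to 3′ on the coding strand, with the signature codons in capitals and 9 bases on either side. Codons are counted from the start codon. A site was sought as AACCCNGCN or AATCCNGCN in frame.
Aqp5, codon 69, chr15:99591476-99591484 (+): ggccacatcAATCCGGCCattactctg
Aqp5, codon 185, chr15:99593270-99593278 (+): tgttccatgAACCCAGCCcgatctttc
Aqp1, codon 76, chr6:55336716-55336724 (+): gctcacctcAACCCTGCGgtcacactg
Aqp1, codon 192, chr6:55345837-55345845 (+): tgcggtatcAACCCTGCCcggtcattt
Aqp3, codon 83, chr4:41094819-41094827 (-): gcccacttgAACCCCGCTgtgaccttc
Aqp3, codon 215, chr4:41093841-41093849 (-): tatgccgtcAACCCTGCCcgtgacttt
Aqp9, codon 110, chr9:71132741-71132749 (-): ggccacatcAACCCAGCGgtgtctttt
Aqp9, codon 242, chr9:71122850-71122858 (-): tgtgccatgAACCCTGCTcgagacctc
Aqp7, codon 79, chr4:41035611-41035619 (-): gcccacatgAATGCCGCAgtgactttc
Aqp7, codon 211, chr4:41034813-41034821 (-): tatgcaatcAACCCATCCcgtgacctg
Aqp11, codon 99, chr7:97737685-97737693 (-): acagctagcAACCCGTGCggcgtgatg
Aqp11, codon 216, chr7:97729053-97729061 (-): gcattgtttAACCCAGCGctggcactt

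The signatures lay 116 codons apart in Aqp5, Aqp1 and Aqp4, which are known as channels for water. They lay 132 codons apart in Aqp3, Aqp7 and Aqp9, which are known to pass glycerol as well. The spacing was 118 codons in Aqp8 and 117 in Aqp11. Aqp7 had no site with all 3 signature codons, and its pair is shown by the sites that keep the asparagine codon and 1 of the other codons. Aqp11 had 1 full site, at codon 216, and the site at codon 99 lacks the alanine codon. The coding sequences ran from 261 codons in Aqp8 to 323 in Aqp4, with 265 in Aqp5.

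Aqp5 lies on chromosome 15 at 99590782 to 99594829 on the plus strand (ENSMUSG00000044217.17). It was the aquaporin that differed by the largest factor between strains in each of the 3 comparisons, higher in Tac111 than in B6 and lower in Tac146 than in B6. In B6 it measured 3.32, 6.30 and 6.83 CPM in replicates 1, 2 and 3, from 139, 181 and 206 counts. In Tac111 it measured 16.4, 19.4 and 27.5 CPM in replicates 1, 2 and 3, from 512, 536 and 947 counts. In Tac146 it measured 1.39, 1.01 and 2.29 CPM in replicates 2, 3 and 4, from 63, 33 and 104 counts. The 3 strains did not overlap: each Tac146 library lay below each B6 library, and each B6 library below each Tac111 library.

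The mean Aqp5 level was 5.48 ± 1.89 CPM for B6, 21.1 ± 5.76 for Tac111 and 1.57 ± 0.657 for Tac146 (SD, n = 3 each). The difference of Tac111 from B6 was 1.96 on the log2 scale (SE 0.31), a factor of 3.89. It ranked 27 from the top of the 16523 genes tested. Tac146 differed from B6 by -1.77 (SE 0.35), a factor of 3.41, which ranked 33 from the bottom. Tac111 was above Tac146 by 3.73 (SE 0.35), a factor of 13.2, which ranked 6 from the top. These comparisons share libraries, since every strain serves in more than a single comparison. The spread within a strain was wide for this gene, with a coefficient of variation of 34.5% in B6, 27.3% in Tac111 and 41.9% in Tac146.

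**Figure D1:**
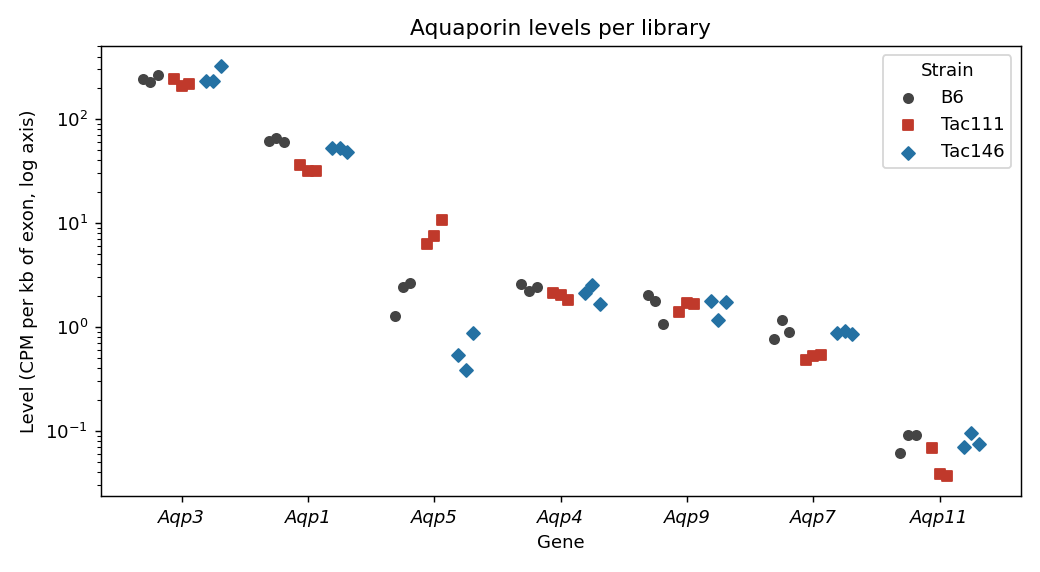
Level of 7 aquaporins in each of the 9 libraries, in CPM per kilobase of exon on a log axis, with a marker and colour per strain. Aqp5 spread from 0.390 to 10.6 CPM per kilobase and its strains did not overlap, while Aqp3 stayed between 210 and 321 CPM per kilobase. Aqp8, at 0 in all libraries, is not drawn.

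Levels of different genes were compared per kilobase of annotated exon. Aqp3 held rank 1 in every strain, with 244 ± 18.8, 225 ± 17.7 and 264 ± 50.0 CPM per kilobase in B6, Tac111 and Tac146 (SD, n = 3). Aqp1 held rank 2, with 62.0 ± 3.16, 33.3 ± 2.46 and 51.0 ± 2.63 CPM per kilobase. The remaining members were at or below 8.12 CPM per kilobase on average. Aqp3 therefore made up 75.6 to 85.8% of the summed aquaporin level per kilobase in a library.

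The place of Aqp5 in that order moved with the strain. In Tac111 it held rank 3, with 8.12 ± 2.22 CPM per kilobase, above Aqp4 at 1.99 ± 0.169. In B6 it held rank 4, with 2.11 ± 0.728 against 2.43 ± 0.193 for Aqp4, neighbours that did not differ beyond their spread and that changed places when the longest transcript was used as the length. In Tac146 it held rank 6, with 0.603 ± 0.253 against 0.886 ± 0.0326 for Aqp7 above it. Their libraries overlapped, with Aqp5 at 0.882 against 0.865 for Aqp7 in replicate 4. Of the members only Aqp11, at 0.0800 ± 0.0128, and Aqp8 stood below Aqp5 there. Aqp4 and Aqp9 were also within their spread of each other in Tac146, with 2.10 ± 0.440 and 1.57 ± 0.335 CPM per kilobase. Aqp5 contributed 0.671 ± 0.224% of the summed aquaporin level in B6, 3.03 ± 0.910% in Tac111 and 0.184 ± 0.0511% in Tac146.

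Against the muscle channel Aqp4, the ratio of Aqp5 per kilobase was 0.884 ± 0.342 in B6, 4.16 ± 1.51 in Tac111 and 0.314 ± 0.197 in Tac146. Against the vessel channel Aqp1 it was 0.0340 ± 0.0118, 0.247 ± 0.0794 and 0.0120 ± 0.00569. The epithelial channel Aqp3 exceeded Aqp5 by 93.6 to 189 times for B6, 20.7 to 38.7 times for Tac111 and 364 to 602 times for Tac146. For each of these 3 partners the ranges of the strains did not overlap, except that the ratio to Aqp4 reached 0.534 in Tac146 and began at 0.489 in B6.

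**Figure D2:**
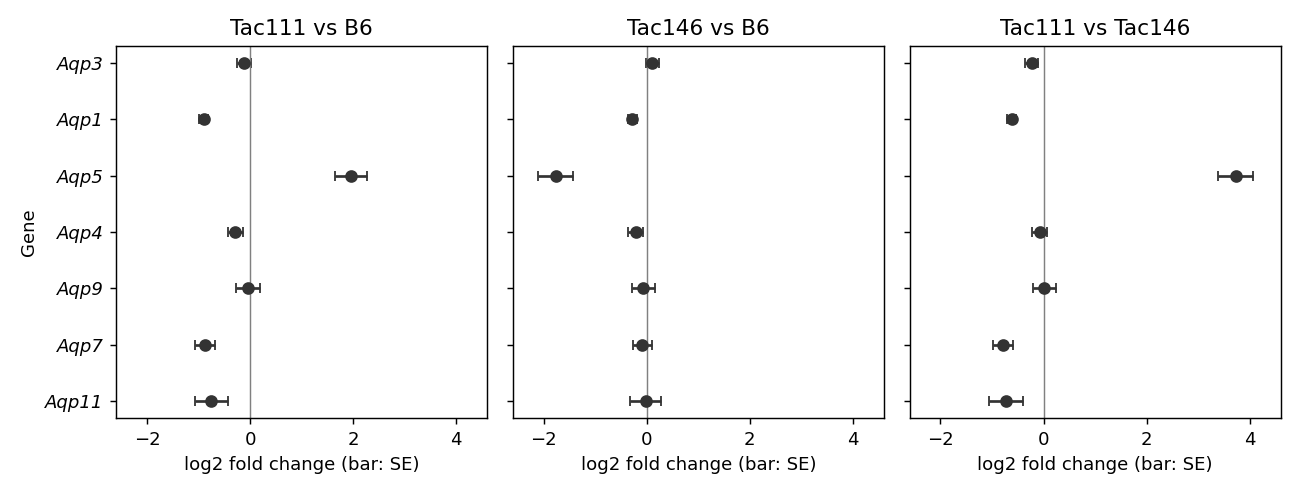
Difference between strains in log2 fold change (points) with its SE (bars) for 7 aquaporins in 3 comparisons, which share libraries. Aqp5 stood at 1.96, -1.77 and 3.73, while the other members ranged from -0.90 to 0.11.

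By edgeR, 630 of 16523 genes (3.81%, with 1.02% higher and 2.80% lower) passed an adjusted p of 0.05 in Tac111 against B6, and of the 7 aquaporins tested Aqp5 was higher and Aqp1 and Aqp7 were lower. In Tac111 against Tac146, 8.89% of the genes passed (2.62% higher and 6.27% lower), and the same members were called in the same directions. In Tac146 against B6, 0.303% of the genes passed (0.194% higher and 0.109% lower) and edgeR called no aquaporin, with 2 at an unadjusted p under 0.05 and Aqp5 alone called by DESeq2. Libraries did not overlap for 4 of the 7 members in Tac111 against B6 (29.6% of all genes, 13.7% higher and 15.8% lower). They did not overlap for 2 in Tac146 against B6 (12.7% of all genes, 6.36% higher and 6.29% lower) and for 4 in Tac111 against Tac146 (35.5% of all genes, 17.1% higher and 18.4% lower). Since the members were chosen on these levels, these counts are a description. Counts at an unadjusted p under 0.05, here and below, have no share of all genes beside them and are not read against one. Of all genes, DESeq2 called 1213 in Tac111 against B6, 136 in Tac146 against B6 and 2677 in Tac111 against Tac146. These totals, in either direction, were above those of edgeR, and DESeq2 counts of list members below are a description only. The edgeR shares given here apply to every list below. The median log2 fold change of the 7 members was -0.29, -0.08 and -0.23 in the comparisons in that order, beside 0.02, 0.01 and 0.02 over all genes.

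Aqp5 sits in a cluster of aquaporin genes, with Aqp2 6235 bases and Aqp6 6571 bases away. These neighbours had 2 and 0 counts in all. Of 15 other protein-coding genes within 250 kb, 11 passed the filter. In Tac111 against B6 edgeR called Faim2 alone, an inhibitor of death receptor signalling that lies 62617 bases away on the minus strand. Faim2 rose from 0.296 ± 0.0866 to 0.983 ± 0.198 CPM (log2 fold change 1.69 with SE 0.41, adjusted p = 0.0496 by edgeR). Its adjusted p ranged from 0.0155 to 0.190 over the alternatives, missing the threshold without any single B6 or Tac111 library. In Tac146 against B6 none of the 11 was called by edgeR or DESeq2, and none had an unadjusted p under 0.05. In Tac111 against Tac146 edgeR called none, with 4 at an unadjusted p under 0.05 and 1 called by DESeq2. Racgap1, the nearest tested gene, differed by 0.18 (SE 0.18) in Tac111 and by 0.30 (SE 0.18) in Tac146 against B6.

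**Figure D3:**
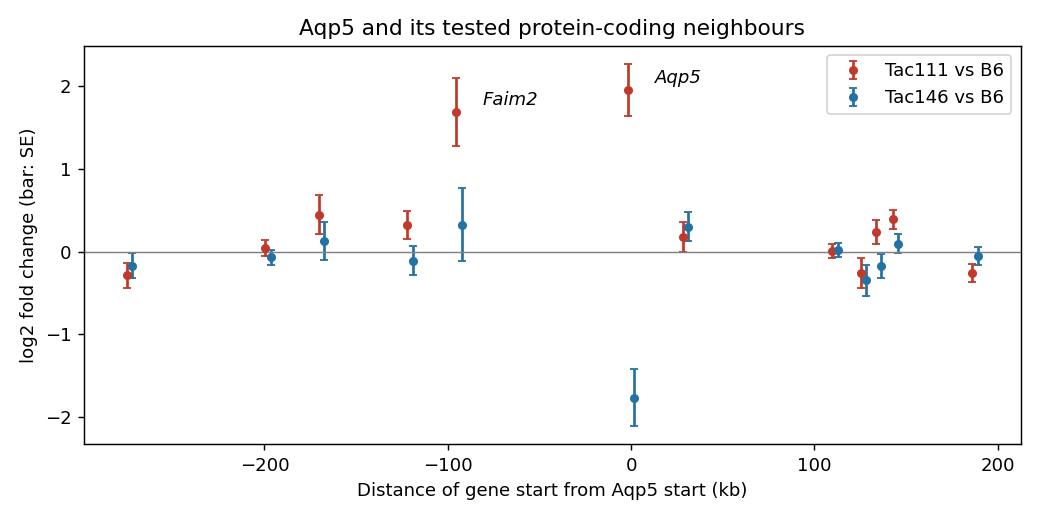
Log2 fold change against B6 with its SE for Aqp5 and its 11 tested protein-coding neighbours, by the distance of their start from that of Aqp5 in kilobases. Aqp5 and Faim2 stand above 1.6 in Tac111, while in Tac146 the neighbours lay between -0.35 and 0.33 and Aqp5 at -1.77.

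Of 24 genes of salivary and mucous gland secretion, only 8 passed the filter, and Bpifb2, Dcpp1, Dcpp2, Dcpp3, Smgc, Tff2 and Dnase1, among them abundant proteins of the mouse sublingual and parotid glands, were at 0 in every library. Other genes of the list were detected. Mean levels in B6, Tac111 and Tac146 were 12.6, 12.3 and 10.2 CPM for Amy1 and 8.57, 14.6 and 16.2 CPM for Ltf. Bpifa2 did not pass the filter, with 69 counts in all. In Tac111 against B6 edgeR called none of the 8, with 3 at an unadjusted p under 0.05 and 3 called by DESeq2. Lpo, the lactoperoxidase of saliva, rose in Tac146 from 0.565 ± 0.374 to 6.77 ± 1.70 CPM (log2 fold change 3.51 with SE 0.40, adjusted p = 0.00467 by edgeR), the strain in which Aqp5 was lowest. The summed list was 119 to 239 CPM for B6, 183 to 347 for Tac111 and 110 to 151 for Tac146. Scgb1a1 made up most of it in every library but Tac146 replicate 4, where it had 53.7 of 110 CPM. Each Tac111 library lay above each Tac146 library in this sum, as it did for Aqp5 and for Scgb1a1 alone. The median log2 fold change of the 8 genes was 0.09 in Tac111 and 0.86 in Tac146 against B6, and -0.43 between Tac111 and Tac146.

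Between Tac111 and Tac146, where Aqp5 differed by a factor of 13.2, 4 of the 8 secretory genes fell and 1 rose. Of all genes, 6.27% were called lower and 2.62% higher. Lpo was at -5.20 on the log2 scale in Tac111 (edgeR adjusted p = 0.000207), at 0.176 ± 0.100 CPM. Spdef, a transcription factor of mucous cells, fell from 2.90 ± 0.329 to 1.03 ± 0.269 CPM (edgeR adjusted p = 0.00907). Bhlha15, a transcription factor of serous secretory cells also known as Mist1, was near the detection limit, with 1 to 8 counts per library in Tac111 and 21 to 36 in Tac146 (edgeR adjusted p = 0.0245, alternatives 0.00768 to 0.101). Creb3l1 fell from 12.7 ± 2.05 to 7.69 ± 1.15 CPM (edgeR adjusted p = 0.0211, alternatives 0.000603 to 0.0929). Scgb1a1, a secretoglobin of airway and gland epithelium, rose from 74.0 ± 22.7 to 204 ± 88.0 CPM (edgeR adjusted p = 0.0357). Without Tac111 replicate 3, whose Scgb1a1 level was 305 CPM against 148 and 158 in the other libraries of the strain, its adjusted p was 0.127, and without Tac111 replicate 2 or replicate 3 only 2 of the 8 genes were called. Without Tac146 replicate 3 or 4 the count was 3.

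**Figure D4:**
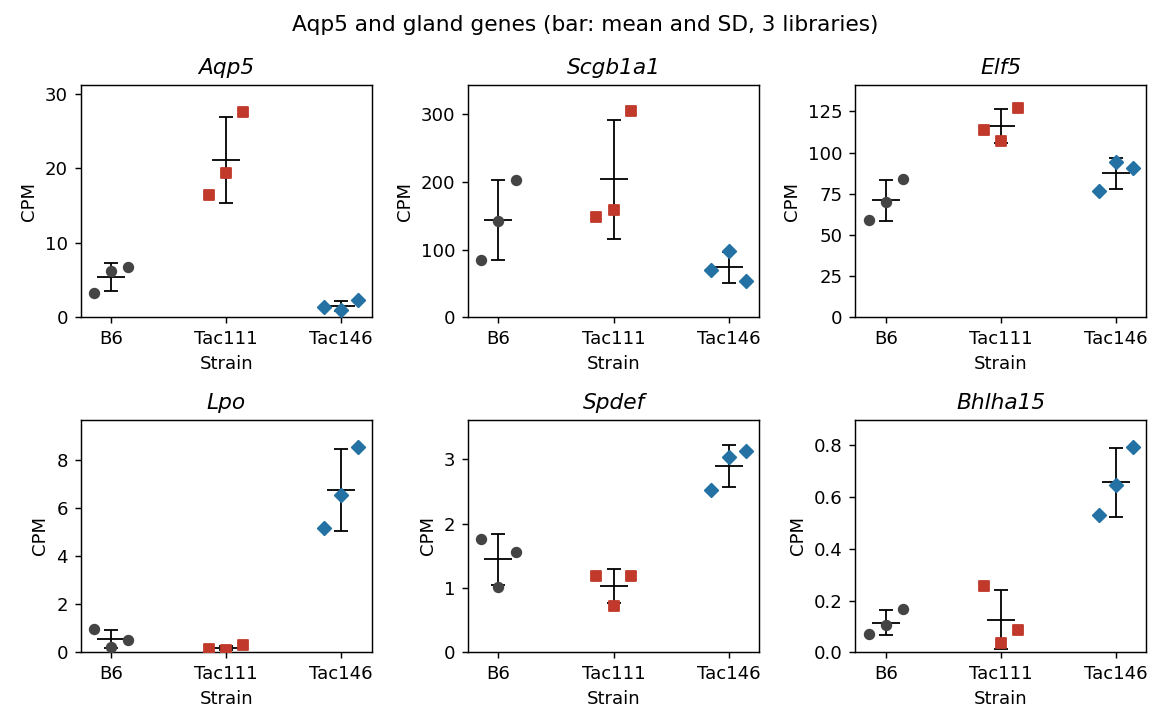
Level in CPM of Aqp5 and 5 gland genes in each library, with the mean and SD of 3 libraries per strain. Aqp5 was highest in Tac111 and lowest in Tac146, where Lpo, Spdef and Bhlha15 were highest.

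Duct and simple epithelium genes gave 2 calls of 11 in Tac111 against B6, both higher, beside 1.02% of all genes. Elf5, a transcription factor of glandular and keratinocyte lineages, rose from 71.0 ± 12.6 to 116 ± 10.2 CPM (log2 fold change 0.71 with SE 0.13, adjusted p = 0.0155 by edgeR, alternatives 8.09e-05 to 0.0737). Krt7, a keratin of duct cells, rose from 6.85 ± 0.490 to 10.6 ± 2.38 CPM at the edge of the threshold (edgeR adjusted p = 0.0499). Neither call held without B6 replicate 2 or without Tac111 replicate 3, and that of Krt7 was also lost without B6 replicate 1 or 3, Tac111 replicate 2 or Tac146 replicate 2 or 3. Against Tac146, Krt19, another keratin of simple epithelium, rose in Tac111 from 4.20 ± 0.565 to 8.81 ± 0.811 CPM (edgeR adjusted p = 0.0165, 0.0666 without Tac111 replicate 3). No gene of the list was called in Tac146 against B6 by edgeR or DESeq2, with 3 at an unadjusted p under 0.05. Aqp5 per 100 CPM of the duct list was 2.91 ± 0.991 in B6, 8.43 ± 2.15 in Tac111 and 0.735 ± 0.255 in Tac146. The order of the strains was the same with this list as the denominator, but the ratio depends on which genes it holds. Elf5 and Epcam were its most abundant genes, with Epcam at 47.5, 53.0 and 54.3 CPM in B6, Tac111 and Tac146. The simple epithelium keratins Krt8 and Krt18 were at or below 1.12 CPM on average in each strain. The median log2 fold change of the 11 genes was 0.30 in Tac111 and 0.05 in Tac146 against B6. Their part in the difference of Aqp5 was not tested.

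The 25 tested genes of fluid secretion, the ion channels, pumps and receptors that drive water through Aqp5 in glands, gave no edgeR call against B6. In Tac111 7 had an unadjusted p under 0.05, 1 higher and 6 lower, and the 3 that DESeq2 called were lower. In Tac146 3 had an unadjusted p under 0.05 and DESeq2 called none. In Tac111 against Tac146 edgeR called 3 of the 25 lower and 1 higher, beside 6.27% and 2.62% of all genes. Itpr2 and Itpr3, the calcium release channels of the secretory response, fell in Tac111 in that comparison. Itpr2 was at 57.3 ± 8.87 CPM in Tac146 and 32.9 ± 0.510 in Tac111 (edgeR adjusted p = 0.00939). Itpr3 was at 171 ± 4.34 and 117 ± 14.4 CPM (edgeR adjusted p = 0.0088). Scnn1a, a subunit of the epithelial sodium channel, was also lower (edgeR adjusted p = 0.0327, alternatives 0.0018 to 0.175), and Atp1b1, a subunit of the sodium pump, higher (edgeR adjusted p = 0.0461, alternatives 0.008 to 0.214). Atp1b1 lost its call without any single library, and Scnn1a without any Tac111 library, B6 replicate 2 or Tac146 replicate 3 or 4. The median over the 25 genes was -0.05, 0.05 and -0.08 in the 3 comparisons.

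Genes of the osmotic response and of aquaporin regulation, such as Nfat5 targets and the WNK kinases, gave no edgeR call of 17 against B6 in either strain. At an unadjusted p under 0.05 there were 4 in Tac111 and 1 in Tac146, and DESeq2 called none. Akr1b3, the aldose reductase that makes sorbitol, was higher in Tac111 than in Tac146 (log2 fold change 0.41 with SE 0.11, adjusted p = 0.0483 by edgeR, alternatives 0.0135 to 0.209), a call lost without any single library except Tac146 replicate 2, while 3 genes were called without Tac146 replicate 2. Hair follicle and sebaceous gland genes, the other appendages a lip biopsy can hold, gave no edgeR call of 20 in Tac111 against B6, with 6 at an unadjusted p under 0.05 and none by DESeq2. Their summed level was 2597 to 3964 CPM for B6, 3401 to 5353 for Tac111 and 1815 to 4288 for Tac146. In Tac146 against B6 edgeR also called none, with 4 at an unadjusted p under 0.05 and 1 called by DESeq2. Against Tac146, the wax ester enzymes Awat1 and Awat2 and the desaturase Scd3 rose in Tac111, by 1.51, 1.69 and 1.37 on the log2 scale (edgeR adjusted p from 0.0251 to 0.0336). They were 3 of the 20, beside 2.62% of all genes called higher. None of these 3 calls held without Tac111 replicate 2, Tac111 replicate 3 or Tac146 replicate 3, and without Tac146 replicate 2 the list had 6. Scd3 also lost its call without Tac111 replicate 1, and Awat1 without Tac146 replicate 4.

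Aqp3, the epithelial channel, lies on chromosome 4 at 41092722 to 41098183 on the minus strand and was the most abundant aquaporin. It measured 442, 415 and 483 CPM in B6, 447, 384 and 401 CPM in Tac111, and 429, 430 and 588 CPM in Tac146. The strains overlapped in all 3 comparisons. The log2 fold changes were -0.12 (SE 0.13) for Tac111 against B6, 0.11 (SE 0.13) for Tac146 against B6 and -0.23 (SE 0.13) for Tac111 against Tac146. The high Tac146 mean came from replicate 4, without which Tac146 was -0.06 from B6. Per 100 CPM of 12 basal keratinocyte genes, Aqp3 stood at 4.18 ± 0.363 in B6, 3.89 ± 0.181 in Tac111 and 4.68 ± 0.923 in Tac146. Krt5, the keratin of basal cells, was at 4159 ± 48.2, 4096 ± 176 and 3841 ± 257 CPM. The basal list gave no edgeR call against B6, with 5 in Tac111 and none in Tac146 at an unadjusted p under 0.05 and 2 and 0 by DESeq2. Among 14 suprabasal genes edgeR called none against B6, with 1 in Tac111 and 2 in Tac146 at an unadjusted p under 0.05 and none by DESeq2. Of the basal genes Col17a1, a hemidesmosome collagen, fell in Tac111 against Tac146 (log2 fold change -0.39 with SE 0.11, adjusted p = 0.0484 by edgeR, alternatives 0.00371 to 0.133), a call lost without any single library except Tac111 replicate 1. Of the suprabasal genes the desmosomal cadherin Dsg3 and the crosslinking enzyme Tgm1 fell by 0.87 and 0.54 on the log2 scale in that comparison (edgeR adjusted p = 0.0161 and 0.0359), and without Tac111 replicate 3 or Tac146 replicate 3 neither was called. Without Tac146 replicate 2 the count was 4, and it was 1 without B6 replicate 2, Tac111 replicate 1 or 2 or Tac146 replicate 4.

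Aqp1, the vessel channel, lies on chromosome 6 at 55336432 to 55348555 on the plus strand. It measured 160, 172 and 157 CPM in B6, 94.8, 83.5 and 83.8 CPM in Tac111, and 139, 137 and 126 CPM in Tac146. The strains did not overlap, and the order was B6, Tac146, Tac111 from high to low. The log2 fold changes were -0.90 (SE 0.09) for Tac111 against B6, -0.28 (SE 0.08) for Tac146 against B6 and -0.62 (SE 0.09) for Tac111 against Tac146. Aqp1 held 40989 counts in all and had the smallest SE of the members in each comparison.

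Aqp7, the glycerol channel, lies on chromosome 4 at 41033074 to 41048139 on the minus strand, 44582 bases from Aqp3. It measured 2.17, 3.27 and 2.55 CPM in B6, 1.35, 1.48 and 1.51 CPM in Tac111, and 2.46, 2.61 and 2.45 CPM in Tac146. Each Tac111 library lay below each library of the other strains, which overlapped. The log2 fold changes were -0.87 (SE 0.19) for Tac111 against B6, -0.08 (SE 0.18) for Tac146 against B6 and -0.79 (SE 0.19) for Tac111 against Tac146. Aqp1 and Aqp7 had a Pearson r of 0.91 over the 9 libraries, which share the strain differences, and of 0.25 after each strain's mean was removed.

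The summed level of the endothelial genes was lower in the same libraries, but not every gene was. Of 18 genes of blood endothelium, 7 fell in Tac111 against B6 by edgeR, beside 2.80% of all genes, with a median log2 fold change of -0.45 over the list. The other 11 were not called, among them Cldn5, Icam2 and Egfl7 at -0.09, -0.11 and -0.12 and Sox18 at 0.16. Cdh5, the cadherin of endothelial junctions, had 34.1 ± 4.14 CPM for B6, 14.8 ± 1.86 for Tac111 and 31.1 ± 3.29 for Tac146. The receptors Flt1 and Kdr, which bind VEGF, fell in Tac111 against B6 by 1.14 (SE 0.12) and 0.96 (SE 0.10) on the log2 scale (edgeR adjusted p = 0.000614 and 0.00079). Pecam1, an adhesion molecule of vessel walls, fell by 0.73 (SE 0.10, edgeR adjusted p = 0.00268). Against Tac146, 6 fell in Tac111, beside 6.27% of all genes, and these 4 genes were among them. In Tac146 against B6 edgeR and DESeq2 called none of the 18, with 1 at an unadjusted p under 0.05. Without B6 replicate 2 the count for Tac111 against B6 was 4. The part of vessel content in the Aqp1 and Aqp7 levels was not tested.

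**Figure D5:**
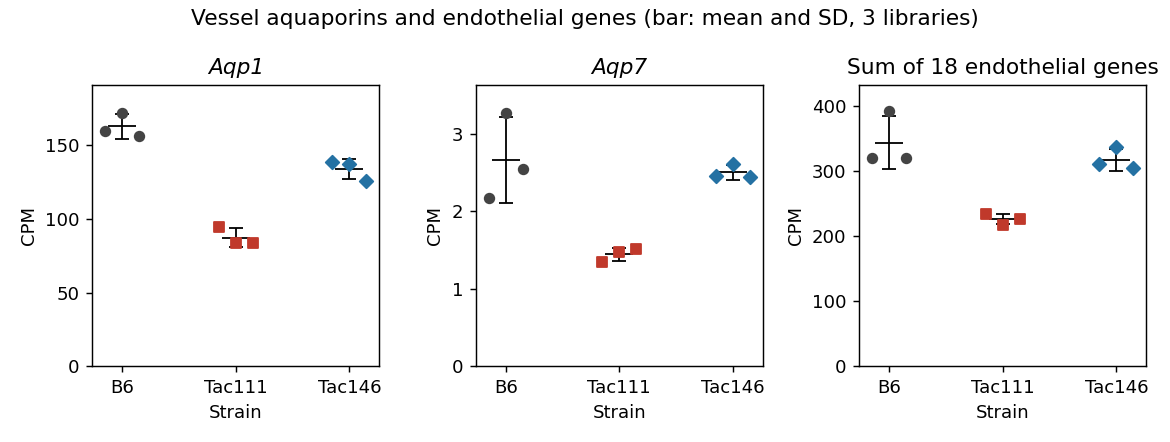
Level in CPM of Aqp1, Aqp7 and the summed 18 endothelial genes in each library, with the mean and SD of 3 libraries per strain. The Tac111 libraries were the lowest in all 3 panels, at 218 to 235 CPM for the endothelial sum against 305 CPM or more in the other strains.

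Aqp1 per 100 CPM of the endothelial list was 47.6 ± 3.21 in B6, 38.5 ± 1.76 in Tac111 and 42.2 ± 2.01 in Tac146. In Tac111 this ratio reached 40.4, while it began at 40.8 in Tac146 and 44.0 in B6. The ratio depends on which genes the list holds. Aqp7 per 100 CPM of the same list was 0.770 ± 0.0807, 0.640 ± 0.0576 and 0.789 ± 0.0131, with Tac111 reaching 0.679 and B6 starting at 0.679, so that they met. Aqp1 is also made by red blood cells, and 6 of 10 erythroid genes passed the filter. EdgeR called none of them in any comparison, with 0, 5 and 1 at an unadjusted p under 0.05 and 0, 0 and 1 by DESeq2 in Tac111 against B6, Tac146 against B6 and Tac111 against Tac146. Hbb-bs, a beta globin, was at 564 ± 153, 424 ± 118 and 327 ± 105 CPM in B6, Tac111 and Tac146, with overlap of the strains in every comparison. The part of red blood cells in the Aqp1 level was not tested. Lymphocyte transcripts were also lowest in Tac111, and their part in the vessel aquaporin levels was not tested.

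Among 16 genes of fat cells and glycerol handling, edgeR called 1 lower in Tac111 against B6, none in Tac146 against B6 and 2 lower in Tac111 against Tac146. Of all genes, 2.80%, 0.109% and 6.27% were called lower in these comparisons. For the comparison without a call, 1 had an unadjusted p under 0.05 and DESeq2 called none. Lipe, the hormone-sensitive lipase that frees glycerol, fell from 42.8 ± 2.51 to 33.4 ± 1.71 CPM in Tac111 against B6 (edgeR adjusted p = 0.0323), a call that was lost without any single B6 library, Tac111 replicate 2 or 3 or Tac146 replicate 3, with a range of 0.0021 to 0.145 over the alternatives. Without Tac146 replicate 4 there were 3 calls. Gk, the glycerol kinase, fell from 34.8 ± 8.78 CPM in Tac146 to 17.0 ± 2.02 in Tac111 (log2 fold change -1.04 with SE 0.17, adjusted p = 0.00625 by edgeR), and it was the only call of the list there without Tac111 replicate 2 or Tac146 replicate 3. Aqp7 per 100 CPM of this list was 0.167 ± 0.0418 in B6, 0.0989 ± 0.00125 in Tac111 and 0.177 ± 0.0164 in Tac146.

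The promoters of Aqp1 and Aqp7 are shown because these genes were low in the same libraries. They are the 250 bases before the RefSeq start in GRCm38.p6, written 5′ to 3′ on the gene's strand. Aqp7 had 2 such windows, of which the first was used. Of that window 247 bases are shown, without the 3 next to the start, which lie in annotated exon. Capitals mark GGGCGG and AGGAAG, the cores bound by SP and ETS factors, searched on both strands together with TATAAA and CACGTG.
Aqp1, chr6:55336049-55336298 (+): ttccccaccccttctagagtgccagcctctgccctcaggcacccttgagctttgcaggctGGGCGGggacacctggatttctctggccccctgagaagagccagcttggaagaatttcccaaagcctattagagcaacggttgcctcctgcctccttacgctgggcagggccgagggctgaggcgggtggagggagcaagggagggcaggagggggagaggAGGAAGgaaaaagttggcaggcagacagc
Aqp7, chr4:41048140-41048386 (-): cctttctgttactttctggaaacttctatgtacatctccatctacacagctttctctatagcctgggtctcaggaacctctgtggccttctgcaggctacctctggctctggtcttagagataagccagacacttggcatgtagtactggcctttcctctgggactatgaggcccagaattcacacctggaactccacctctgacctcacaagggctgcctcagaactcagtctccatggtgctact

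The Aqp1 window held GGGCGG, found in 32.9% of 27025 mouse promoters of that length, and AGGAAG, found in 29.2%. The Aqp7 window held none of the 4 motifs and no CpG. The median promoter had 6 CpG and 52% G and C, against 5 CpG and 62% in Aqp1 and 50.8% in Aqp7. The window of the same kind for Aqp5 had 246 of its 250 bases inside annotated exon. It had 38 CpG and 78.4% G and C, and held GGGCGG at 2 places and CACGTG at 1, a motif found in 6.05% of promoters. The window before Aqp3 held GGGCGG and, 29 bases upstream of its start, TATAAA, found in 13.0%.

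Aqp4, the muscle channel, differed less between strains than Aqp5 and Aqp1 in each comparison, with a coefficient of variation of 21.0% within Tac146. It measured 16.3, 13.9 and 15.2 CPM in B6, 13.4, 12.6 and 11.3 CPM in Tac111, and 13.1, 15.8 and 10.3 CPM in Tac146. Each Tac111 library lay below each B6 library, while Tac146 overlapped both. The log2 fold changes were -0.29 (SE 0.15) for Tac111 against B6, -0.22 (SE 0.15) for Tac146 against B6 and -0.07 (SE 0.15) for Tac111 against Tac146. Aqp4 was lowest in Tac146 replicate 4, which was also the library with the lowest muscle sum. Per 100 CPM of the muscle list it was 0.0350 ± 0.00188 in B6, 0.0289 ± 0.00315 in Tac111 and 0.0397 ± 0.00316 in Tac146.

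Of 19 tested muscle genes edgeR called none against B6, with 1 in Tac111 and 5 in Tac146 at an unadjusted p under 0.05 and 1 each by DESeq2. The muscle sum was 40854 to 44677 CPM for Tac111 and 24518 to 38415 CPM for Tac146, without overlap. Between these strains DESeq2 called 8 muscle genes higher in Tac111, and 10 had an unadjusted p under 0.05. Of all genes, DESeq2 called 2677 there, in either direction. EdgeR called Myl1 alone, a myosin light chain of fast fibres, higher by 0.57 (SE 0.16, edgeR adjusted p = 0.0488, alternatives 0.00456 to 0.152). That call was lost without any single library of B6 or Tac111 and without Tac146 replicate 3 or 4, and 2 genes were called without Tac146 replicate 2. The dystrophin complex, the membrane assembly that holds Aqp4, gave 2 calls of 14 in Tac111 against B6, both lower, beside 2.80% of all genes. Sgcd, delta-sarcoglycan, fell in Tac111 from 7.21 ± 0.243 to 2.96 ± 1.09 CPM against B6 (log2 fold change -1.29 with SE 0.23, adjusted p = 0.0129 by edgeR). Utrn, the dystrophin relative utrophin, fell from 85.8 ± 8.10 to 53.3 ± 10.1 CPM (edgeR adjusted p = 0.0264). Both also fell against Tac146 (edgeR adjusted p = 0.024 and 0.0191), beside 6.27% of all genes. Neither was called against either strain without Tac111 replicate 2. Against Tac146 neither was called without Tac146 replicate 3 as well, and against B6 1 was called without B6 replicate 2 or 3 or Tac111 replicate 3. No gene of the complex was called in Tac146 against B6 by edgeR or DESeq2, with 5 at an unadjusted p under 0.05.

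Aqp9, the glycerol channel of leukocytes, lies on chromosome 9 at 71110659 to 71168682 on the minus strand. It measured 8.43, 7.45 and 4.47 CPM in B6, 5.80, 7.08 and 6.89 CPM in Tac111, and 7.32, 4.88 and 7.25 CPM in Tac146. The strains overlapped throughout, and the log2 fold changes were -0.05, -0.06 and 0.02 (SE 0.23 each). Of 14 neutrophil and monocyte genes, 6 were tested, and edgeR called 4 lower in Tac111 than in Tac146, beside 6.27% of all genes. S100a9, a calcium-binding protein of neutrophils and stressed keratinocytes, was at 1.54 ± 0.591 CPM in Tac111 and 49.8 ± 39.4 in Tac146 (edgeR adjusted p = 0.00701). Csf3r, a receptor of granulocyte growth, and Il1r2, a decoy receptor of interleukin-1, were not called (edgeR adjusted p = 0.383 and 0.135). Without Tac111 replicate 3 only 1 of the 6 was called, and 2 without Tac111 replicate 1 or 2 or Tac146 replicate 3. Against B6 edgeR called none of the 6, with 2 in Tac111 and 3 in Tac146 at an unadjusted p under 0.05 and 0 and 1 called by DESeq2. Ly6g, the defining neutrophil surface marker, was at 0 in every library, and Mpo, Camp, Ngp and Retnlg had 11 to 18 counts each in all.

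Aqp11 lies on chromosome 7 at 97724006 to 97738289 on the minus strand and was the lowest of the 7 tested aquaporins, with 208 counts over the 9 libraries. It measured 0.573, 0.870 and 0.861 CPM in B6, 0.641, 0.361 and 0.349 CPM in Tac111, and 0.664, 0.891 and 0.705 CPM in Tac146. Tac111 lay below Tac146 without overlap and overlapped B6 through its replicate 1. The log2 fold changes were -0.75 (SE 0.33) for Tac111 against B6, -0.02 (SE 0.30) for Tac146 against B6 and -0.73 (SE 0.32) for Tac111 against Tac146. Aqp8, on chromosome 7 at 123462291 to 123468004 on the plus strand, had 0 counts in all libraries, which at a floor of 3 counts allows a level of up to 0.108 CPM. Floors and intervals of this kind cover counting error only.

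The genes whose levels followed Aqp5 most closely over the 9 libraries were Kcnmb4, Zfp2, Cirbp, Rhbdd3, Znrf1, Rnaseh1, Polr3d and Dmwd, with Pearson r of log2(CPM + 0.5) from 0.92 to 0.96 among 12376 genes at a mean of 2 CPM or more. The 9 libraries share the strain differences and their depth, so these values carry no test. Rhbdd3, a rhomboid family member, had 7.90 ± 0.413 CPM for B6, 15.6 ± 1.59 for Tac111 and 6.53 ± 0.609 for Tac146. Kcnmb4, a subunit of the calcium-activated potassium channel, was at 2.74 ± 0.333, 3.50 ± 0.386 and 2.22 ± 0.328 CPM and had an r of 0.92 within strains. By Spearman rho the 8 genes ranked between 1 and 58, and none was among the 8 nearest by r within strains.

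For the vessel channels the nearest genes by Pearson r over the 9 libraries, which share the strain differences, included endothelial ones. Those nearest to Aqp7 were Arhgef15, Slfn5, Kdr, Abcb1a and Lrrc8c (r from 0.96 to 0.97), of which Kdr is a gene of the endothelial list. Those nearest to Aqp1 were Tgtp2, Fgd5, Gbp4, Atp2a3 and Jcad (r from 0.97 to 0.98). Fgd5 and Jcad are known from endothelial cells, while Tgtp2 and Gbp4 are interferon-induced GTPases. Aqp3 was nearest to F11r, Clu, Imp4, Tspan14 and Paqr5 (r from 0.94 to 0.96), of which F11r is a tight junction protein of epithelia. Aqp11 was nearest to Zfp84, Iqgap2, Zfhx3, Tbc1d24 and Togaram1 (r from 0.96 to 0.98). Aqp5 against the other members gave r from -0.72 with Aqp7 to 0.04 with Aqp9. After each strain's mean was removed, r ran from -0.83 with Aqp4 to 0.48 with Aqp7, so its sign with Aqp7 reversed.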

How the data were processed

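Expected counts per gene were deposited by the authors for 9 libraries, as a gene symbol and a value per line, per the file headers. The submitters' processing notes name STAR, RSEM and the build GRCm38, without versions. Per the labels' protocols the kit was stranded and selected polyadenylated RNA. Lines with a repeated symbol (107 symbols) were summed, and 27 date-like symbols were kept apart. Values were rounded to whole numbers, scaled with TMM factors, filtered with filterByExpr and tested with edgeR 4.0.16 in R 4.3.3 (quasi-likelihood F test, 1 mean per strain over all 9 libraries, 6 residual degrees of freedom, Benjamini-Hochberg over 16523 genes, threshold 0.05). DESeq2 1.42.0 was an alternative, with other scalings, filters, a replicate block, only the 6 libraries compared, and each library left out. The procedure was tested on simulated counts. Gene positions and lengths came from GENCODE M21.

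The aquaporins, the 14 gene lists and the naming rule were chosen with earlier results of these data known. Named genes were all aquaporins, per list the 4 with the smallest adjusted p and the most abundant, the genes most like each aquaporin, and the protein-coding genes within 250 kb of Aqp5. The genes most like Aqp4 are not reported here. Depth ran from 27192359 to 46456500 counts, so 3 counts were worth at most 0.108 CPM. Symbols read from the tables cannot separate reads shared with near-identical copies.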

Additional observations from a re-analysis of the deposited data

How the results depend on the processing

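The log2 fold changes of Aqp5 kept their direction under every alternative tried: without single libraries they ranged from 1.69 to 2.15 in Tac111 against B6, from -2.14 to -1.56 in Tac146 against B6 and from 3.49 to 4.11 in Tac111 against Tac146. In Tac146 against B6, where edgeR did not call Aqp5, DESeq2, no filter, the replicate block, and leaving out B6 replicate 1 or Tac146 replicate 4 did. Aqp7 lost its call in Tac111 against B6 without B6 replicate 2 or 3 or any single Tac111 library, and in Tac111 against Tac146 with the replicate block, without any single Tac111 library or without Tac146 replicate 3. Aqp1 and Aqp5 kept theirs in both comparisons under all of these. The members were chosen on these same levels, so calls kept or lost among them are a description, with no test. Of the list counts, 506 stayed within 1.5 times of the reported count and 166 did not. Of the recomputed aquaporin log2 fold changes, 327 moved by less than the spread between libraries and 6 by more. Counts of genes called, from 630, 50 and 1469, were 1213, 136 and 2677 by DESeq2, 1020 and 129 in the comparisons against B6 with no filter, and 26 (Tac146 against B6) and 641 (Tac111 against Tac146) with only the 6 libraries compared. Without single libraries they ranged from 295 to 958, 33 to 64 and 470 to 1829; the cause was not tested. Same-numbered libraries had correlations of -0.16 to 0.29, so the numbers were not taken as pairing; with the replicate block Aqp5 stood at -2.32 in Tac146 against B6 and 4.30 in Tac111 against Tac146, and the latter comparison had 632 calls. Depth limits Aqp11, with 10 to 32 counts a library, and Aqp8.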
